A study of Mus musculus with 18 samples.

Results

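The mouse mitochondrial genome encodes 37 transcripts, and their read counts were followed in oocytes with and without VPS34. The set was defined as every gene row of the count table whose symbol starts with mt-, which gave 37 of 55291 genes: 13 protein-coding genes, 2 ribosomal RNA (rRNA) genes and 22 transfer RNA (tRNA) genes. By the annotation 28 of them lie on the plus strand of the mitochondrial genome and 9 on the minus strand, namely mt-Nd6 and 8 tRNA genes. The proteins are subunits of the respiratory chain and of ATP synthase, and the RNAs serve the ribosomes inside mitochondria. Mitochondrial DNA is transcribed from both strands into long precursors, which are cut at the tRNAs into single RNAs. Most of the mRNAs, and the rRNAs, then receive short poly(A) tails. A mouse oocyte holds far more mitochondrial DNA than a somatic cell, passes it to the embryo, and is known to replicate it little between full growth and the first cleavages.

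The oocytes came from females aged 5 weeks that were Vps34 floxed/floxed, where Vps34 is the gene Pik3c3, the class III phosphatidylinositol 3-kinase of autophagy and endosome traffic. Controls carried the floxed gene alone. The knockout group (ZcKO) carried in addition Zp3-Cre, a transgene switched on as oocytes grow and silent in the follicle cells around them, so that controls lack Cre as well as the deletion. Germinal vesicle (GV) oocytes, arrested before meiosis resumes, were taken 46 h after PMSG, and ovulated metaphase II (MII) oocytes 14 h after hCG. Each of these 4 groups had 3 libraries of 5 oocytes, made by Smart-seq2 with ERCC spike-ins, synthetic RNAs of known amount. The 2-cell embryos of the series (6 samples) were left aside and are not analysed here. Replicates are called biological in the series' design, but libraries are tied to no animal in the labels used, so p-values measure the spread between these libraries.

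Gene totals lay between 2609783 and 4696626 counts per library. All 10 oocyte markers examined (among them Zp3, Gdf9 and Bmp15) had counts in the data set. Pik3c3, given once as a check of the labels, stood at 35.5, 28.8 and 25.8 counts per 1000000 gene counts (CPM) in control GV libraries 1 to 3 and at 1.56, 1.65 and 2.67 CPM in ZcKO GV libraries. In MII libraries it stood at 10.6, 21.4 and 17.1 CPM in control and 5.36, 2.42 and 3.21 CPM in ZcKO. These counts had been seen when the column letters were read as control and Cre, so they are no independent check of that reading. The libraries ZcKO GV 1 and ZcKO GV 3 stood apart from their groups. A nuclear gene model that covers cytoplasmic rRNA (CT010467.1, chr17:39846353-39848827) took 11.1% of gene counts in ZcKO GV 1 and 1.17% in ZcKO GV 3, against 2.80% to 6.57% in the other 4 GV libraries. Where leaving out either of them moved a result on the sums or medians of the members, the value without it is given.

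Some members have near-identical copies in the nuclear genome, and the sequences show why their counts are uncertain. Fragments of mitochondrial DNA have entered nuclear chromosomes many times. In mouse a run of 7 pseudogene models at chr1:24611535-24616197 (minus strand, mm10) matches mt-Nd4, mt-Nd4l, mt-Nd3, mt-Co3, mt-Atp6, mt-Co2 and the end of mt-Co1. The first 60 bases of mt-Co2 (chrM:7013-7072, plus strand) and of its copy Gm28661 (chr1:24615506-24615565, minus strand) are shown because no base differs between them, and the same holds for mt-Co3 (chrM:8607-8666) and Gm28437 (chr1:24613912-24613971, minus strand). An older copy of mt-Co1, Gm13340 (chr2:22589114-22589203, minus strand), is shown beside bases 445 to 534 of mt-Co1 (chrM:5772-5861) for contrast, with capitals at the bases that differ. Sequences are those of the GENCODE M21 transcripts, 5′ to 3′.
mt-Co2: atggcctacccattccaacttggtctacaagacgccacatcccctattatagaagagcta
Gm28661: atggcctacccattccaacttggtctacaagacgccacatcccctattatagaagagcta
mt-Co3: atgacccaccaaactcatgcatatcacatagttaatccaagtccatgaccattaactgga
Gm28437: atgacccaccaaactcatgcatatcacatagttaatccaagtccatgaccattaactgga
mt-Co1: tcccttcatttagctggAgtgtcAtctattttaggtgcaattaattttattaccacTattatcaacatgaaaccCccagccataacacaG
Gm13340: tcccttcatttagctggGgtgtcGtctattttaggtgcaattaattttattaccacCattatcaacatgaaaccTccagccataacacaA

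Over their whole aligned lengths the copies Gm10925 (of mt-Atp6), Gm28661, Gm28437, Gm28439 (of mt-Nd4) and Gm10222 (of mt-Nd4l) had 0 mismatches. Gm28438 (of mt-Nd3) and Gm29216 (of mt-Co1) had 1 mismatch each, and Gm13340 had 37 over 1545 bases. Every window of 50 bases in each member was looked up in the nuclear gene models of the annotation. The share of windows with an exact nuclear match was 100% for mt-Co2, 99.9% for mt-Co3, 99.5% for mt-Atp6, 98.8% for mt-Nd4l and 98.0% for mt-Nd3. It was 62.2% for mt-Nd4, 51.1% for mt-Co1, 8.19% for mt-Nd2 and 7.61% for mt-Nd5. mt-Nd1, mt-Cytb, mt-Nd6, mt-Atp8, mt-Rnr1 and all 22 tRNA genes had no match, and mt-Rnr2 had 1.04%.

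Level per length was lowest for the mRNAs with nearly all windows shared, as the plot of level against shared windows shows. Among the other mRNAs it did not follow the share. There mt-Co1 (51.1%) and mt-Nd4 (62.2%) lay above mt-Nd5, mt-Nd6 and mt-Atp8, which share less. The 5 mRNAs with at least 95% of windows shared had 20.4 to 112 CPM per kb (mean over the 4 groups), with mt-Nd3 lowest and mt-Atp6 highest. The other mRNAs lay above these, with mt-Atp8 lowest at 207 CPM per kb. Among them mt-Cytb, the cytochrome b subunit of complex III, came first at 3315 CPM per kb, followed by mt-Nd1 at 1724, mt-Co1 at 1249.5, mt-Nd2 at 816, mt-Nd4 at 500.4, mt-Nd5 at 392 and mt-Nd6 at 289. The core subunits of cytochrome c oxidase were split, with mt-Co1 at 1249.5 CPM per kb and mt-Co2 and mt-Co3 at 64.9 and 44.3.

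**Figure D1:**
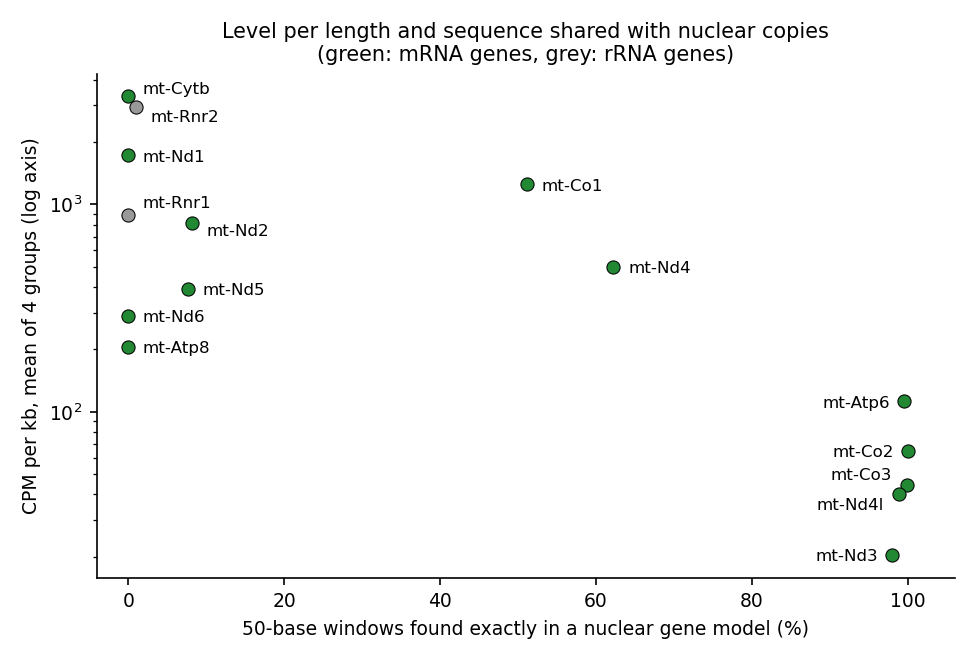
Level of the 13 mRNA and 2 rRNA members (y axis, CPM per kb on a log axis, mean of the 4 groups) against the percent of their 50-base windows found exactly in a nuclear gene model (x axis). The 5 mRNAs at the right, with at least 95% shared, sit at or below 112 CPM per kb, and the lowest of the others is mt-Atp8 at 207.

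The copies carried counts themselves. Over the 12 libraries Gm10925 had 3491 counts against 2972 for mt-Atp6, Gm28438 had 1250 against 280 for mt-Nd3, and Gm10222 had 491 against 471 for mt-Nd4l. Gm28661 had 1064 against 1774 for mt-Co2 and Gm28437 had 1228 against 1387 for mt-Co3. Gm29216 and Gm28439, which match only part of mt-Co1 and mt-Nd4, had 866 against 76394 and 400 against 27163. With the counts of the copy added, mt-Nd3 came to 113 CPM per kb in place of 20.4 and mt-Atp6 to 243 in place of 112, and mt-Co2, mt-Co3 and mt-Nd4l came to 104, 83.9 and 83.7. The order then no longer separated the mRNAs by shared windows, since mt-Atp6 lay above mt-Atp8 at 207, which has no shared window. How the submitters treated reads that map to several places is not given in the sources used here, and its part in these low levels was not tested. The reads of a member and of its copy cannot be told apart where the letters are the same. mt-Atp8 (207 CPM per kb) lies between mt-Co2 and mt-Atp6, and the 233 bases that separate their copies on chromosome 1 (chr1:24614652-24614884) are as long as the stretch between the matched parts of both genes in the mitochondrial genome (chrM:7694-7926), which holds the start of mt-Atp8. That stretch of chromosome 1 has no gene model in the annotation and its letters were not used here.

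The share of mitochondrially encoded counts overlapped between the genotypes and was higher at MII than at GV, whereas it was not higher when set against the spike-ins. In GV libraries 1 to 3 the members took 0.983%, 1.13% and 0.941% of gene counts in control and 1.39%, 0.726% and 0.513% in ZcKO. In MII libraries they took 2.18%, 2.54% and 1.61% in control and 2.40%, 1.78% and 2.43% in ZcKO. The stages did not overlap in either genotype, and the genotypes overlapped at both stages. The means were 1.02% ± 0.0991 (SD, n = 3 here and in all groups) in control GV, 0.876% ± 0.457 in ZcKO GV, 2.11% ± 0.466 in control MII and 2.20% ± 0.369 in ZcKO MII. From GV to MII the mean log2 share differed by 1.03 in control and 1.44 in ZcKO (2.05-fold and 2.71-fold higher). Between genotypes it differed by -0.34 at GV, within the pooled SD of 0.53, and by 0.07 at MII, within the pooled SD of 0.30. The GV value rested on single libraries: it was -0.73 without ZcKO GV 1 and -0.015 without ZcKO GV 3. The change from GV to MII in ZcKO was 1.84 and 1.12 without these libraries.

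Against the ERCC counts the stages overlapped. Mitochondrially encoded counts per ERCC count were 0.0428, 0.0792 and 0.0818 in control GV, 0.182, 0.0540 and 0.0323 in ZcKO GV, 0.0404, 0.0586 and 0.0390 in control MII and 0.0487, 0.0392 and 0.0366 in ZcKO MII. ZcKO GV 1 was the highest of the 12 libraries by this measure, with the fewest ERCC counts (245489). The log2 difference from GV to MII was -0.53 in control and -0.73 in ZcKO, beside pooled SDs of 0.44 and 0.92. The ZcKO value was -0.018 without ZcKO GV 1 and -1.27 without ZcKO GV 3, and the control value was -0.83 without control GV 1. All gene counts together fell further on this scale, from 4.35, 7.01 and 8.69 gene counts per ERCC count in control GV to 1.85, 2.31 and 2.42 in control MII, and from 13.1, 7.43 and 6.29 in ZcKO GV to 2.03, 2.21 and 1.51 in ZcKO MII. The share of mitochondrial counts was thus higher at MII while the count per spike-in was not. In such libraries fewer or smaller oocytes and less RNA per oocyte cannot be told apart, nor can the amount of an RNA and its capture by its poly(A) tail.

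**Figure D2:**
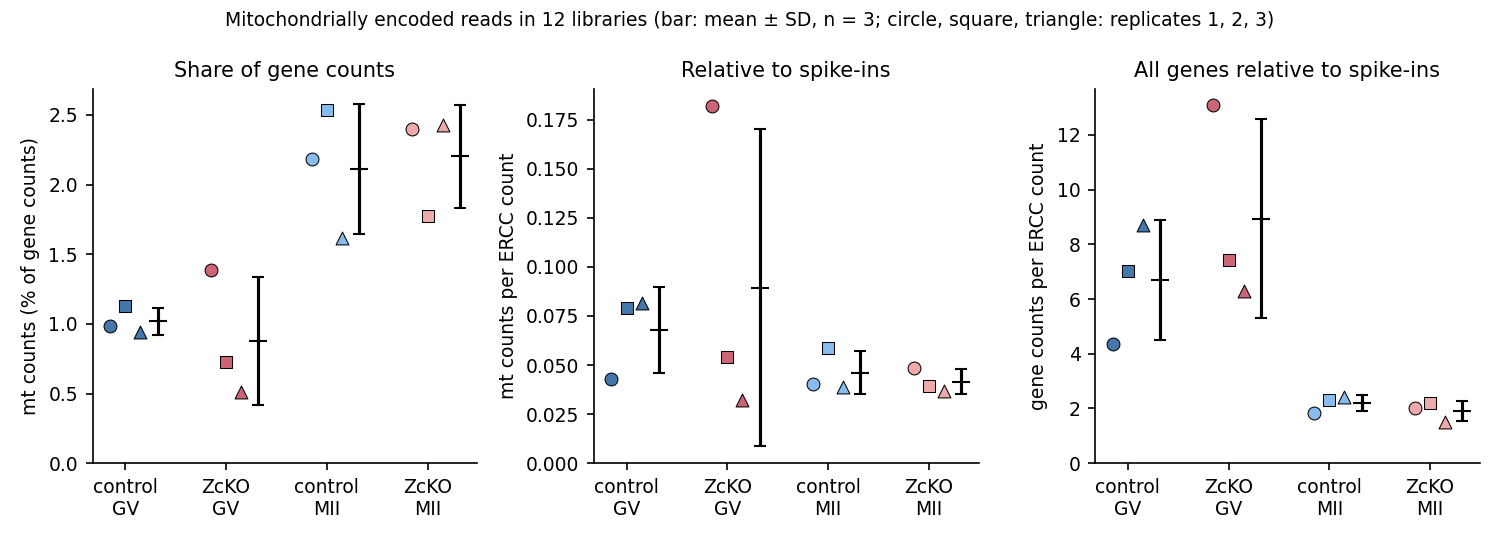
Mitochondrially encoded counts in each of the 12 libraries as a percent of gene counts (left), per ERCC count (middle), and all gene counts per ERCC count (right), with the mean ± SD of 3 libraries per group. The share is 0.513% to 1.39% at GV and 1.61% to 2.54% at MII, while per ERCC count both stages overlap.

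Reads of mRNA and rRNA members shifted against each other between the stages. The 2 rRNAs, mt-Rnr1 (the small subunit 12S rRNA) and mt-Rnr2 (the large subunit 16S rRNA), held 48.4%, 52.7% and 51.4% of mitochondrial counts in control GV libraries and 56.9%, 39.0% and 43.9% in ZcKO GV libraries. At MII they held 17.9%, 32.5% and 33.4% in control and 34.8%, 33.1% and 23.6% in ZcKO. The rRNA share was lower in every MII library than in every GV library of its genotype. The tRNAs together held 0.0604% to 0.225% of mitochondrial counts and the mRNAs the rest. Among the mRNA counts, mt-Cytb took 33.7%, 32.9% and 36.9% in control GV and 46.9%, 37.2% and 37.9% in control MII. mt-Co1 took 27.1%, 29.1% and 23.1% in control GV and 12.3%, 20.3% and 17.6% in control MII, so that its share was lower at MII while that of mt-Cytb was higher.

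**Figure D3:**
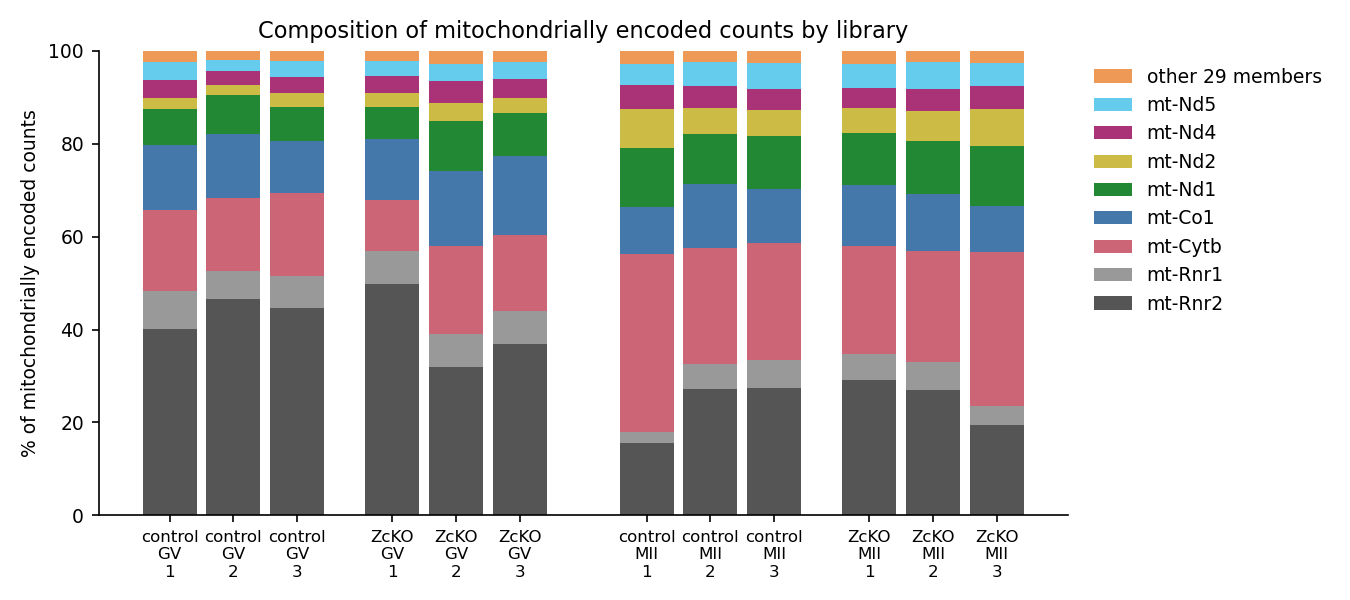
Composition of the mitochondrially encoded counts of each library in percent (y axis), split into the 2 rRNAs, the 6 most counted mRNAs and the other 29 members. The grey rRNA part is 39.0% to 56.9% of the bar at GV and 17.9% to 34.8% at MII.

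Single members were then tested for the change from GV to MII in 1 fit of all 12 libraries (quasi-likelihood test of edgeR, p adjusted by Benjamini-Hochberg over 11607 genes, threshold 0.05). In control oocytes 15 of the 19 members that passed the filter on low counts rose relative to gene totals and 0 fell (12 of 13 mRNAs, 0 of 2 rRNAs and 3 of 4 tRNAs), against a background of 30.1% of all genes called higher. In ZcKO oocytes 17 of 19 rose and 0 fell (12 of 13 mRNAs, 1 of 2 rRNAs and 4 of 4 tRNAs), against 29.5%. These tallies include mt-Tl1 and mt-Tm, which passed the filter only through the MII libraries, where they are high, so that their rise is no support. Among the 17 members that also passed at GV, 13 rose in control and 15 in ZcKO (1 and 2 of 2 tRNAs). The same 15 members were called in both genotypes. The median log2 change over the tested members was 1.62 in control and 1.78 in ZcKO (1.43 and 1.72 over the 17). Over all genes it was 0.01 and -0.04. The ZcKO median over the tested members was 2.11 without ZcKO GV 1 and 1.59 without ZcKO GV 3. On CPM values the stages did not overlap for 15 members in each genotype, all of them higher at MII (13 and 14 of the 17), where 28.9% and 27.6% of all genes were higher without overlap. The 18 members that did not pass the filter are all tRNA genes.

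With ERCC totals as library sizes these rises were gone. The median of all genes moved to -1.87 in control and -2.49 in ZcKO, and that of the tested members to -0.18 and -0.72. On this scale 1 member was called higher (mt-Tl1, admitted to the test by its MII counts, against 0.44% of all genes) and 3 lower in control (mt-Co3, mt-Rnr1 and mt-Rnr2, against 71.4%). In ZcKO 0 were called higher (against 0.618%) and 8 lower (mt-Co1, mt-Co2, mt-Co3, mt-Nd3, mt-Nd4, mt-Nd6, mt-Rnr1 and mt-Rnr2, against 88.2%). For the members, each log2 change in the following paragraphs is relative to gene totals unless ERCC totals are named.

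Markers of other cells were examined beside the stage change. Summed CPM of 18 cumulus and granulosa cell markers was 348 to 601 in GV libraries and 939 to 1781 in MII libraries, and each marker had counts in at least 1 library. Most of this sum was Serpine2, with 865 to 1977 counts in GV and 2237 to 4965 in MII libraries. Relative to gene totals 8 of 13 tested were called higher and 1 lower in control, against 30.1% and 33.8% of all genes, and 10 higher and 0 lower in ZcKO, against 29.5% and 34%. With ERCC totals 3 of 14 were higher and 5 lower in control (median log2 -0.21). In ZcKO 4 were higher and 4 lower (median -0.18). Of all genes 0.44% were called higher and 71.4% lower on that scale in control (median -1.87). In ZcKO these were 0.618% and 88.2% (median -2.49). Relative to gene totals 0 of the 10 oocyte markers were called higher and 5 lower in control. In ZcKO 1 was higher and 6 were lower. With ERCC totals all 10 were lower in both genotypes, against 71.4% of all genes in control and 88.2% in ZcKO. Of 10 blood and immune markers 2 were at 0 in all libraries and only C1qb, a complement component, passed the filter, with 152 to 298 counts in GV and 9 to 28 in MII libraries. The other blood and immune markers had at most 5 counts in any library. The part of cumulus cells in the higher mitochondrial share of MII libraries was not tested.

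**Figure D4:**
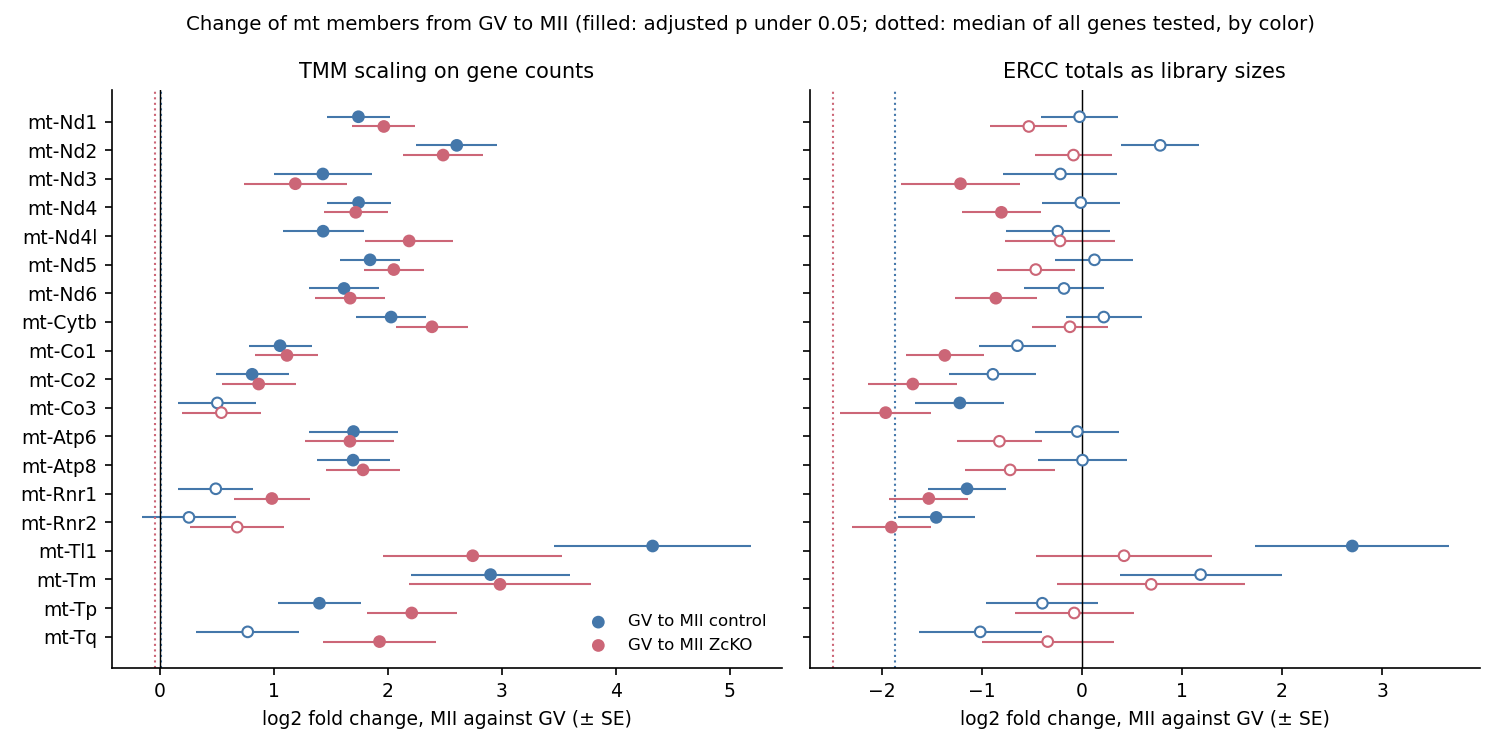
Log2 fold change from GV to MII of the 19 tested members with its standard error, scaled to gene counts by TMM (left) and to ERCC totals (right), for control (blue) and ZcKO (red). Filled points passed an adjusted p of 0.05, and dotted lines mark the median of all genes tested, near 0 on the left and at -1.87 and -2.49 on the right. mt-Tl1 and mt-Tm entered the test only through their MII counts.

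The genes of complex I, the NADH dehydrogenase, rose together relative to gene totals, 7 of 7 in both genotypes. Of all genes 30.1% in control and 29.5% in ZcKO were called higher on that scale. With ERCC totals none of the 7 was called in control. In ZcKO mt-Nd3, mt-Nd4 and mt-Nd6 were called lower with ERCC totals, against 88.2% of all genes. mt-Nd2 had the largest rise of all mRNA members. It stood at 245, 247 and 273 CPM in control GV libraries and at 1829, 1412 and 930.3 CPM in control MII libraries, 6.08-fold higher (log2 2.60, SE 0.35, adjusted p = 1.2e-05 by edgeR, and 0.78 with ERCC totals). In ZcKO it went from 421, 270.3 and 163 CPM to 1274, 1151 and 1941 CPM (log2 2.48, adjusted p = 1.8e-05, and -0.08 with ERCC totals). In CPM the stages did not overlap in either genotype, while per ERCC count they overlapped in both.

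mt-Nd1 stood at 764, 959 and 703 CPM in control GV and 2762, 2764 and 1826 CPM in control MII (log2 1.74, SE 0.27, and -0.02 with ERCC totals). In ZcKO it went from 940.0, 785 and 472 to 2698, 2012 and 3112 CPM (log2 1.96, and -0.53 with ERCC totals). mt-Nd4 gave 363, 326 and 321 CPM in control GV and 1129, 1188 and 731 CPM in control MII, and 496, 345 and 209.6 CPM in ZcKO GV and 1076, 863 and 1229 CPM in ZcKO MII. Its log2 change was 1.74 in control and 1.72 in ZcKO, and -0.01 and -0.80 with ERCC totals, where it was called lower in ZcKO (adjusted p = 0.0456 by edgeR). mt-Nd5 rose from 386, 271.5 and 333 CPM to 1004, 1325 and 891 CPM in control (log2 1.84, and 0.13 with ERCC totals) and from 453, 262 and 196 CPM to 1239, 1041 and 1188 CPM in ZcKO (log2 2.05, and -0.46 with ERCC totals).

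mt-Nd6 is the sole protein gene on the light strand. Its values were 83.5, 63.3 and 88.6 CPM in control GV and 262, 208 and 177 CPM in control MII, and 111, 82.1 and 41.3 CPM in ZcKO GV and 231, 175 and 278 CPM in ZcKO MII. The log2 change was 1.62 in control and 1.67 in ZcKO (SE 0.31 in both), and -0.18 and -0.86 with ERCC totals. It lay within the range of the complex I genes on the heavy strand, and the test of a difference between strands was not run. Whether mt-Nd6 RNA was captured by a poly(A) tail as the other mRNAs were was not tested. mt-Nd6 overlaps mt-Nd5 by 14 bases on the opposite strand, and the strand setting of the counting is not given in the sources used here.

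The remaining complex I genes are those with nuclear copies. mt-Nd3 stood at 6.09, 4.75 and 2.98 CPM in control GV and 9.27, 18.1 and 6.25 CPM in control MII (log2 1.43, adjusted p = 0.00744 by edgeR, and -0.21 with ERCC totals). In ZcKO it went from 5.91, 3.58 and 2.67 CPM to 11.5, 6.36 and 7.84 CPM (log2 1.19, adjusted p = 0.029, and -1.21 with ERCC totals). The control call was lost without control MII 2 (adjusted p = 0.0733 by edgeR). The ZcKO call was lost without ZcKO GV 2 or 3 or ZcKO MII 1 or 3 (adjusted p = 0.0508 to 0.109) and with gene totals in place of TMM. mt-Nd4l, which overlaps mt-Nd4 by 7 bases, went from 7.78, 7.39 and 6.39 CPM to 12.3, 26.3 and 14.9 CPM in control and from 7.15, 3.31 and 2.67 CPM to 22.6, 18.8 and 13.9 CPM in ZcKO. Its log2 change was 1.43 and 2.19, and -0.24 and -0.22 with ERCC totals. These are the 2 least counted mRNA members, with 8 to 60 and 8 to 87 counts per library.

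mt-Cytb, the mitochondrial subunit of complex III, held the most mRNA counts over the 12 libraries together, although mt-Co1 was above it in ZcKO GV 1 and 3. It stood at 1704, 1759 and 1684 CPM in control GV, a narrow spread, and at 8381, 6366 and 4065 CPM in control MII, 4.08-fold higher (log2 2.03, SE 0.31, adjusted p = 2.1e-05 by edgeR, and 0.22 with ERCC totals). In ZcKO it went from 1520.4, 1382 and 846 CPM to 5553, 4221 and 8021 CPM, 5.23-fold higher (log2 2.39, SE 0.31, adjusted p = 4.3e-06 by edgeR, and -0.12 with ERCC totals). In CPM all MII libraries lay above all GV libraries. Of all genes 28.9% in control and 27.6% in ZcKO were higher without overlap on that scale. Per ERCC count the stages overlapped for mt-Cytb in both genotypes.

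The cytochrome c oxidase (complex IV) genes had the smallest log2 changes among the mRNAs. mt-Co1 stood at 1370.0, 1554 and 1052 CPM in control GV and 2201, 3464 and 1891 CPM in control MII, 2.08-fold higher (log2 1.05, SE 0.28, adjusted p = 0.00277 by edgeR, and -0.64 with ERCC totals). In ZcKO it went from 1846, 1171 and 871 CPM to 3146, 2176 and 2423 CPM (log2 1.11, adjusted p = 0.00186, and -1.37 with ERCC totals). mt-Co2 went from 39.9, 40.9 and 28.3 CPM to 54.5, 69.4 and 49.7 CPM in control and from 50.7, 25.9 and 16.7 CPM to 55.9, 39.96 and 60.6 CPM in ZcKO, where the stages overlapped. Its log2 change was 0.81 (adjusted p = 0.0333) and 0.87 (adjusted p = 0.0265), and -0.89 and -1.69 with ERCC totals. The control call was lost without control GV 1 or 3 or control MII 1 or 2 (adjusted p = 0.064 to 0.132 by edgeR), with gene totals in place of TMM and with DESeq2. The ZcKO call was lost without ZcKO GV 2 or 3 or ZcKO MII 1 or 3 (adjusted p = 0.053 to 0.112).

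mt-Co3 was the mRNA that did not pass the test in either genotype. It stood at 31.8, 36.1 and 22.8 CPM in control GV, 41.7, 47.7 and 27.2 CPM in control MII, 45.4, 28.9 and 14.996 CPM in ZcKO GV and 51.3, 29.97 and 38.9 CPM in ZcKO MII, with overlap in both genotypes. The log2 difference was 0.50 (SE 0.34, adjusted p = 0.205 by edgeR) in control and 0.54 (SE 0.35, adjusted p = 0.181) in ZcKO. With ERCC totals it was lower at MII, by -1.22 (adjusted p = 0.0103) and -1.96 (adjusted p = 3.3e-05). Among the copies, Gm28437, the copy of mt-Co3, gave log2 0.61 in control (adjusted p = 0.146) and 0.94 in ZcKO (adjusted p = 0.0317), and Gm10925, the copy of mt-Atp6, gave 1.66 (adjusted p = 0.00209) and 1.89 (adjusted p = 8.9e-04). That the difference between mt-Co3 and the other mRNAs exceeds their error was not tested.

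The ATP synthase genes mt-Atp6 and mt-Atp8 share 43 bases and rose relative to gene totals, while neither was called with ERCC totals. mt-Atp6 went from 33.5, 47.2 and 28.5 CPM to 114.5, 133 and 75.5 CPM in control and from 60.7, 39.95 and 22.7 CPM to 184, 67.2 and 111 CPM in ZcKO. mt-Atp8 went from 28.7, 23.2 and 15.1 CPM to 71.4, 78.2 and 44.8 CPM in control and from 27.4, 20.1 and 11.3 CPM to 59.4, 49.9 and 75.9 CPM in ZcKO. The log2 change was 1.70 and 1.67 for mt-Atp6 and 1.69 and 1.78 for mt-Atp8, and with ERCC totals -0.05 and -0.82 for mt-Atp6 and 0.01 and -0.72 for mt-Atp8.

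The last 30 bases of 4 mRNAs are shown because mRNA ends in the mitochondrial genome are unusual: a stop codon may be left incomplete in the DNA and is finished by the poly(A) tail. As annotated, 10 of the 13 mRNA genes end in a complete stop codon and 3 in a lone T (mt-Co3, mt-Cytb and mt-Nd4). Of the 10, mt-Nd2, with the largest rise, is shown. The last 2 bases of mt-Nd2 are also the first 2 of mt-Tw on the same strand, and mt-Nd1 and mt-Ti share 2 bases likewise. Where these precursors are cut was not examined, so the mRNAs of mt-Nd1 and mt-Nd2 may also end in a lone T. Capitals mark the stop codon or its first base. The positions are chrM:9361-9390, chrM:15259-15288, chrM:11515-11544 and chrM:4922-4951, all on the plus strand.
mt-Co3: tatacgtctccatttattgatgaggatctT
mt-Cytb: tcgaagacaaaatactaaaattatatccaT
mt-Nd4: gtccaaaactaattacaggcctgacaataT
mt-Nd2: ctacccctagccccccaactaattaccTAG

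The 3 genes annotated with an incomplete stop did not move alike. Their log2 changes in control were 0.50 for mt-Co3, 2.03 for mt-Cytb and 1.74 for mt-Nd4 relative to gene totals, and -1.22, 0.22 and -0.01 with ERCC totals, from the lowest of the mRNAs to the highest but 1 on the first scale.

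Relative to gene totals the mitochondrial rRNAs had log2 changes below those of all mRNAs in control, though not in ZcKO, and with ERCC totals they were called lower in both genotypes. mt-Rnr2, the most counted member over all libraries, stood at 3938, 5259 and 4203 CPM in control GV, 3412, 6914 and 4444 CPM in control MII, 6916, 2316 and 1893 CPM in ZcKO GV and 7017, 4799 and 4749 CPM in ZcKO MII. It did not pass the test in either genotype (log2 0.25, SE 0.41, adjusted p = 0.602 by edgeR in control, and log2 0.68, SE 0.41, adjusted p = 0.166 in ZcKO). The ZcKO result depended on the setting: over 15 fits the log2 change ran from -1.90 (ERCC totals) to 1.55. It was called in 2 of these fits, 1 of them with ERCC totals. Without ZcKO GV 1, 19 of 20 tested members were called higher in ZcKO. mt-Rnr1 stood at 818, 691 and 636 CPM in control GV and 502, 1333 and 944 CPM in control MII (log2 0.49, adjusted p = 0.206). In ZcKO it rose from 985, 517 and 359.9 CPM to 1333, 1075 and 994 CPM (log2 0.98, adjusted p = 0.0172), a call that was lost without ZcKO GV 2 (log2 0.85, adjusted p = 0.0673) or ZcKO GV 3 (log2 0.68, adjusted p = 0.0704). With ERCC totals both rRNAs were lower at MII in both genotypes: mt-Rnr1 by -1.15 and -1.53 and mt-Rnr2 by -1.45 and -1.90.

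Per 1000 ERCC counts mt-Rnr2 had 17.1, 36.8 and 36.5 counts in control GV and 6.31, 15.97 and 10.7 in control MII, without overlap. On that scale 4 members were lower without overlap in control (mt-Rnr1, mt-Rnr2, mt-Co2 and mt-Co3), where 74.1% of all genes were. Only mt-Tl1 was higher, where 0.638% of all genes were, and it was admitted to the test by its MII counts, so that this is no support. In ZcKO 0 members were lower without overlap, where 88.8% of all genes were, and 0 were higher, where 0.5% were. In GV libraries of ZcKO the rRNA counts went with the nuclear rRNA model. ZcKO GV 1, 2 and 3 had mt rRNA at 0.790%, 0.283% and 0.225% of gene counts and CT010467.1 at 11.1%, 4.45% and 1.17%. In control GV libraries these were 0.476%, 0.595% and 0.484% beside 2.80%, 6.57% and 3.83%. The part of rRNA carry-over in the mitochondrial rRNA values was not tested.

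**Figure D5:**
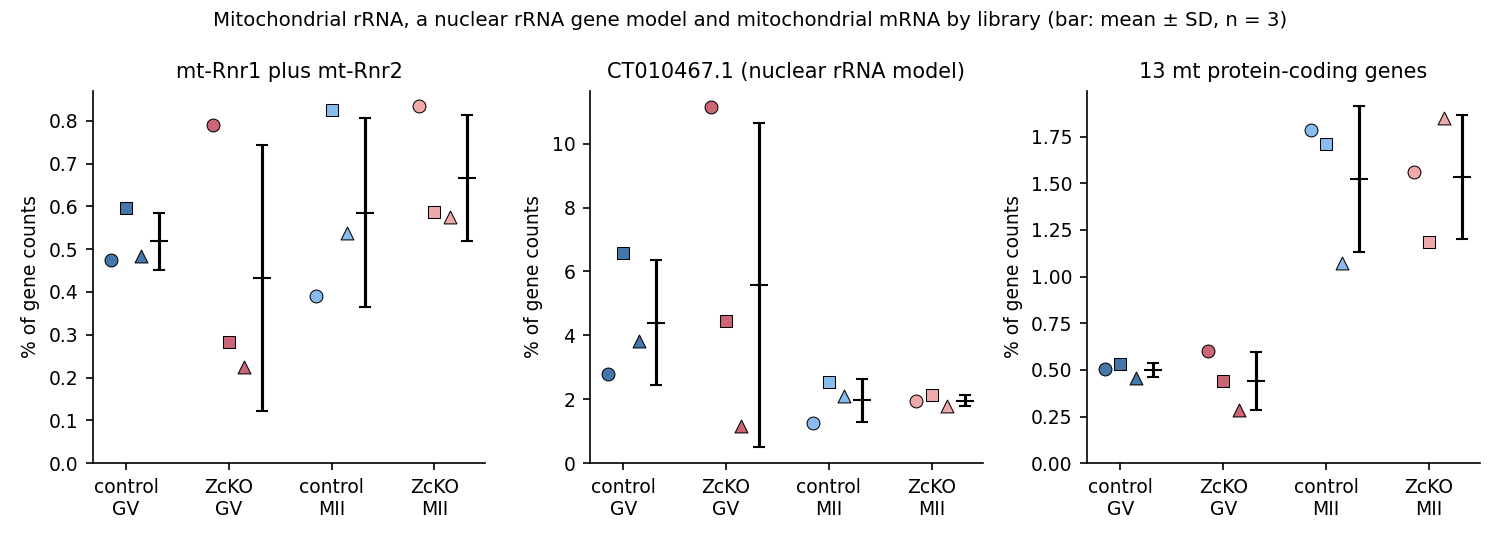
Percent of gene counts (y axes) in the 2 mitochondrial rRNAs, in the nuclear rRNA model CT010467.1 and in the 13 mitochondrial mRNAs, by library and with mean ± SD of 3 libraries. ZcKO GV 1 is the highest GV library in all 3 panels, and the mRNA panel shows no overlap between GV (0.287% to 0.599%) and MII (1.07% to 1.85%).

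Of the tRNA genes few were counted. The 22 genes together had 959 of 615577 mitochondrial counts, and 653 of these (68.1%) fell on the 8 tRNA genes of the light strand. Without a known strand setting such reads cannot be told apart from reads of heavy-strand precursors that run across the same bases. mt-Tp, mt-Tq, mt-Tl1 and mt-Tm, the tRNAs for proline, glutamine, one of the leucine codon families and methionine, held 77.1% of the tRNA counts. mt-Tp and mt-Tq are the 2 tRNAs with a mean of at least 10 counts. mt-Tl1 and mt-Tm were singled out after their values were seen. Their sequences are shown because they hold most tRNA counts. Capitals mark the first longest run of A, since Smart-seq2 primes on runs of A. They lie at chrM:15356-15422 (minus strand), chrM:3772-3842 (minus strand), chrM:2676-2750 and chrM:3845-3913 (plus strand).
mt-Tp: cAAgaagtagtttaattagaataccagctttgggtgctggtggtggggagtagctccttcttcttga
mt-Tq: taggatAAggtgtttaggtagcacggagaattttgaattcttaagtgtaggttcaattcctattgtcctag
mt-Tl1: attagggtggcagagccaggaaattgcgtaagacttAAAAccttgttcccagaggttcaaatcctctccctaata
mt-Tm: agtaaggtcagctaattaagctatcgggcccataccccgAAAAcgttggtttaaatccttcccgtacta

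mt-Tp had 13, 21 and 23 counts in control GV, 58, 28 and 41 in control MII, 9, 7 and 14 in ZcKO GV and 39, 34 and 39 in ZcKO MII. It rose relative to gene totals in both genotypes (log2 1.399, adjusted p = 0.00266, and log2 2.21, adjusted p = 9.3e-05, by edgeR), and was at -0.39 and -0.08 with ERCC totals. mt-Tq had 14, 8 and 25 counts in control GV, 30, 12 and 25 in control MII, 5, 12 and 5 in ZcKO GV and 24, 17 and 25 in ZcKO MII. It passed the test in ZcKO (log2 1.93, adjusted p = 0.00242) and missed it in control (log2 0.77, SE 0.45, adjusted p = 0.146), and the difference of these changes missed it as well (log2 1.16, adjusted p = 0.875). With ERCC totals mt-Tq was at -1.02 and -0.34.

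mt-Tl1 had 2, 0 and 1 counts in control GV and 26, 15 and 17 in control MII. The ratio of its summed counts per gene count was 20.7 (95% exact interval of counting error 6.76 to 104), given as a description, since the gene entered the test only through its MII counts. In ZcKO it had 4, 3 and 0 counts at GV and 20, 4 and 14 at MII, a ratio of 6.13 (2.70 to 16.3). mt-Tm had 3, 0 and 6 counts in control GV and 22, 22 and 14 in control MII, and 2, 3 and 0 in ZcKO GV and 9, 7 and 17 in ZcKO MII. The same limit holds for mt-Tm, whose ratios were 6.92 (3.40 to 15.9) and 7.45 (2.89 to 24.5). The longest run of A is 4 bases in mt-Tl1 and mt-Tm, 2 in mt-Tp and mt-Tq, and 8 in mt-Tr, which had 2 counts in all. The part of such runs in the tRNA counts was not tested. mt-Tg, mt-Tk and mt-Ty had 0 counts in all 12 libraries, which allows up to 0.0738 CPM each over the summed libraries (a floor of 3 counts, covering counting error only). mt-Tk lies between mt-Co2 and mt-Atp6, and mt-Tg between mt-Co3 and mt-Nd3, genes with copies on chromosome 1. mt-Tr lies likewise between mt-Nd3 and mt-Nd4l. The window search covered gene models and not the bases between them. A loss of reads that map to several places was not tested, and this limit does not cover it.

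The ZcKO and control oocytes were compared within each stage. At GV 0 of 17 tested members were called (edgeR), beside 0.0825% of all genes, and 0 had an unadjusted p under 0.05. Of the 17 log2 differences 14 were negative, with a median of -0.19 beside 0.01 over all genes. The lowest p was that of mt-Cytb, at 1704, 1759 and 1684 CPM in control and 1520.4, 1382 and 846 CPM in ZcKO (log2 -0.49, SE 0.24, adjusted p = 0.9999 by edgeR). It was the only member whose genotypes did not overlap in CPM at GV, and 2.3% of all genes were lower in this way. Per 1000 ERCC counts mt-Cytb overlapped (7.42, 12.3 and 14.6 against 19.9, 10.3 and 5.32). The median over the members rested on single libraries. It was -0.59 without ZcKO GV 1, with 17 of 17 negative, and 0.08 without ZcKO GV 3, with 4 of 17 negative, and with ERCC totals it was 0.44, beside 0.46 over all genes.

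At MII 0 of 19 tested members were called and 0 had an unadjusted p under 0.05. The background was 0%, with 0 of 9677 genes called by edgeR and 4 by DESeq2, none of them mitochondrial. The median log2 difference was 0.02, the same as over all genes to 2 decimals, and it ranged from -0.17 to 0.17 when single libraries were left out. The widest differences among the mRNAs and rRNAs were those of mt-Nd3 at -0.42 (SE 0.42) and mt-Rnr1 at 0.28 (SE 0.27). mt-Tm had the lowest p (log2 -0.54, SE 0.48, adjusted p = 0.724 by edgeR) and was lower without overlap per ERCC count, as were 10.6% of all genes. Standard errors of 0.17 to 0.56 at MII and 0.24 to 0.50 at GV limit what these libraries can show.

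The change from GV to MII was also compared between the genotypes. Of 19 members 0 were called in this test of the difference of changes and 0 had an unadjusted p under 0.05, beside 0.00862% of all genes called (1 of 11607). The lowest p was that of mt-Tq (log2 1.16, SE 0.67, adjusted p = 0.875 by edgeR). The mRNA members had differences of -0.24 to 0.75 with a median of 0.06. The median over all tested members was 0.08 and rested on single libraries. It was 0.47 without ZcKO GV 1 and -0.24 without ZcKO GV 3. The 2 rRNAs stood at 0.42 (SE 0.58, mt-Rnr2) and 0.49 (SE 0.47, mt-Rnr1), higher in ZcKO but neither called. With ERCC totals their sign turned, to -0.45 for mt-Rnr2 and -0.38 for mt-Rnr1. The median of the tested members was then -0.68, beside -0.60 over all genes.

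Nuclear genes that serve the mitochondrial genome were examined by 3 lists: transcription and termination (10 genes), RNA processing and decay (21 genes) and DNA maintenance (17 genes). No gene of these lists was called between the genotypes at either stage or in the difference of changes (edgeR). From GV to MII in control 4 of 9 tested transcription genes were higher and 4 lower, 6 of 19 processing genes were higher and 10 lower, and 3 of 13 DNA maintenance genes were higher and 6 lower, against 30.1% of all genes higher and 33.8% lower. In ZcKO these were 4 and 4 of 9, 5 and 7 of 19, and 3 and 5 of 13, against 29.5% and 34%. With ERCC totals none was higher in either genotype, against 0.44% of all genes in control and 0.618% in ZcKO. In control 5 of 9, 14 of 19 and 11 of 14 were lower, against 71.4% of all genes. In ZcKO 6, 17 and 12 were lower, against 88.2%.

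Polrmt, the RNA polymerase of mitochondria, was among the genes that fell, while 12 of the 13 mRNAs made by it rose relative to gene totals but not with ERCC totals. It went from 39.4 ± 9.12 to 2.61 ± 0.449 CPM in control (SD, log2 -3.75, adjusted p = 3.4e-08 by edgeR) and from 45.7 ± 17.9 to 2.38 ± 0.417 CPM in ZcKO (log2 -4.07, adjusted p = 2.0e-08). Mterf4, needed for assembly of the mitochondrial ribosome, went from 174 ± 16.5 to 23.0 ± 8.32 CPM in control and from 173 ± 21.2 to 21.9 ± 4.56 CPM in ZcKO (log2 -2.79 and -2.84). Prorp, the nuclease that cuts the 5′ ends of tRNAs out of the precursor, fell by 3.26 and by 2.43 on the log2 scale. Ptcd2 fell by 2.25 on that scale in control, and in ZcKO it went from 58.4 ± 17.5 to 14.0 ± 1.83 CPM.

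In the DNA maintenance list Tk2, the thymidine kinase of mitochondria, went from 51.3 ± 8.61 to 9.13 ± 3.005 CPM in control (log2 -2.37). In ZcKO it went from 71.5 ± 6.83 to 7.08 ± 3.13 CPM (log2 -3.16). Twnk, the helicase of mitochondrial DNA, fell by 3.39 on the log2 scale in ZcKO. In control Twnk went from 16.9 ± 3.86 to 2.62 ± 0.567 CPM. Rrm2b, a ribonucleotide reductase subunit that supplies nucleotides outside S phase, moved the other way, from 208 ± 30.5 to 487 ± 63.3 CPM in control and from 197 ± 21.1 to 576 ± 41.8 CPM in ZcKO (log2 1.37 and 1.69), but was at -0.34 and -0.66 with ERCC totals, neither called. Polrmt, Mterf4, Prorp, Tk2 and Twnk were lower with ERCC totals as well. Where no gene was called, the lowest p belonged to Twnk (log2 0.51, SE 0.23) and Rnaseh1 (0.41, SE 0.19) at GV and to Prorp (0.98, SE 0.44) and Trmt10c (-0.48, SE 0.22) at MII. In the difference of changes it belonged to Rnaseh1 (-0.75, SE 0.28) and Trmt10c (-0.71, SE 0.33).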

How the data were processed

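The values are raw counts of reads by gene symbol, as the authors deposited them, for Smart-seq2 libraries of 5 oocytes. The tools were fastp, HISAT2 and featureCounts and the build mm10, per the submitters' processing notes, which give no versions. Which annotation and strand setting were used and how multi-mapping reads were treated is not given in the sources used here. Columns were matched by stage, letter and replicate number, reading C as control and T as ZcKO, and 6 columns that match no label were not used.

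Tests of counts used edgeR 4.0.16 (R 4.3.3; TMM, filterByExpr, robust glmQLFit and glmQLFTest, Benjamini-Hochberg over all genes tested, threshold 0.05), 6 libraries per genotype comparison and all 12 for the changes from GV to MII. A standard error is the size of the log2 fold change over the square root of F. CPM uses gene totals without TMM factors, and ERCC rows were left out of library sizes except where stated. The code was tested on simulated counts. Alternatives were other scalings, ERCC totals, no filter, DESeq2 1.42.0, a replicate block and leaving out each library.

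Positions, lengths and letters come from GENCODE M21 on mm10. Windows of 50 and 100 bases of each member were matched exactly to all nuclear transcripts. The members and gene lists were chosen with earlier results of these data known, and CT010467.1 was added as an rRNA model after the table was seen. Values were given for all mRNA and rRNA members, for tRNAs with a mean of at least 10 counts, and from each set of nuclear lists for up to 6 called genes with the smallest adjusted p, or else the 2 with the smallest p. Libraries of a group differed by more than sampling noise. Reads carry no molecular identifiers, so intervals cover counting error only.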

Additional observations from a re-analysis of the deposited data

How the results depend on the processing

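With ERCC rows in the denominator the log2 difference of the mitochondrial share from GV to MII in control was 0.70, and with protein-coding members only it was 1.58, against 1.03; protein-coding counts per ERCC count differed by 0.017, against -0.53. The count of members called from GV to MII was 4 in control and 8 in ZcKO with ERCC totals as library sizes, and 14 to 17 and 14 to 20 over the other alternatives that kept all libraries. Without single libraries it was 13 to 16 and 14 to 19, and 0 in both genotype comparisons and in the difference of changes. The share differed by -0.73 to -0.01 (GV genotype), -0.11 to 0.22 (MII genotype), 0.89 to 1.21 (control) and 1.12 to 1.84 (ZcKO) without single libraries, and the count per ERCC count by -0.64 to 0.60, -0.25 to 0.05, -0.83 to -0.36 and -1.27 to -0.02. With ERCC totals the sign turned for 13 members in control and 17 in ZcKO. Among those called relative to gene totals it turned in control for mt-Atp6 (-0.046), mt-Co1 (-0.64), mt-Co2 (-0.89), mt-Nd1 (-0.022), mt-Nd3 (-0.21), mt-Nd4 (-0.011), mt-Nd4l (-0.24), mt-Nd6 (-0.18) and mt-Tp (-0.39). Among those called in ZcKO it turned for mt-Atp6 (-0.82), mt-Atp8 (-0.72), mt-Co1 (-1.37), mt-Co2 (-1.69), mt-Cytb (-0.12), mt-Nd1 (-0.53), mt-Nd2 (-0.083), mt-Nd3 (-1.21), mt-Nd4 (-0.80), mt-Nd4l (-0.22), mt-Nd5 (-0.46), mt-Nd6 (-0.86), mt-Rnr1 (-1.53), mt-Tp (-0.076) and mt-Tq (-0.34). Apart from ERCC totals, calls among tested members were lost for mt-Co2, mt-Nd3 and mt-Rnr1 (the last in ZcKO without ZcKO GV 2 or 3) and for no other, while mt-Tl1 and mt-Tm were not tested in the fit of the 6 ZcKO libraries. In ZcKO mt-Co3 and mt-Rnr2, not called in the main fit, were each called in 2 of 15 fits, 1 of them with ERCC totals. mt-Co2 was lost in control without control GV 1 or 3 or control MII 1 or 2, with gene totals and with DESeq2, and in ZcKO without ZcKO GV 2 or 3 or ZcKO MII 1 or 3 and in the fit of 6 libraries. mt-Nd3 was lost in control without control MII 2 and in ZcKO without ZcKO GV 2 or 3 or ZcKO MII 1 or 3 and with gene totals. Replicate numbers did not pair the libraries (same-numbered deviations correlated at -0.23 to 0.21), and a fit with the number as a block called 0, 0, 16, 17 and 0 members. The cause of each change was not tested. Depth limits the tRNA members and mt-Nd3 and mt-Nd4l.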

Other observations

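Lars2, the leucyl-tRNA synthetase of mitochondria and a nuclear gene, stood at 109.9, 214 and 139.7 CPM in control GV, 999, 223 and 54.0 CPM in ZcKO GV, 158, 140.4 and 121 CPM in control MII and 120.3, 163 and 256 CPM in ZcKO MII. ZcKO GV 1, with the highest value, was also the library with the highest share of the nuclear rRNA model CT010467.1 (11.1%). The part of rRNA carry-over in the Lars2 counts was not tested.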
